A study of Mus musculus with 5 samples.

Results

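The cells described here are the cortical radial precursors of the E11.5 mouse embryo, the dividing cells that line the ventricle. They were chosen by their own counts: a cell of the authors' E11.5 cortical table was taken if it held 500 or more unique molecular identifiers (UMIs, each marking 1 captured RNA molecule), 3 or more summed UMIs of the 7 markers Pax6, Sox2, Hes1, Hes5, Slc1a3, Mfge8 and Ttyh1, none of Eomes, and at most 1 summed UMI of the 6 neuronal genes Neurod1, Neurod2, Neurod6, Tbr1, Gad1 and Gad2. The rule took 547 of the 1418 cells (38.6%, exact Clopper-Pearson 95% interval 36.0 to 41.2%), out of 6390 cells in the cortical tables of 4 ages. The 871 other cells of the table were used for comparison.

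The study profiled wild-type CD1 embryos by Drop-seq, in which single cells are caught in droplets with barcoded beads. Cortices of 4 ages, E11.5 and then E13.5, E15.5 or E17.5, were dissociated and sorted for viable cells at every age but E11.5. No transgene, deletion or drug was used in any group, and the labels do not say how many embryos were pooled. Each age was 1 library here, because the 2 batches labelled at E15.5 share a table that names no batch. There was therefore no replicate error and no test: intervals cover counting error only, and every ratio describes these libraries.

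Radial precursors descend from the neuroepithelium of the early neural tube and keep an apical contact with the ventricle while they divide. Pax6 and Sox2 are transcription factors that hold the precursor state, and Hes1 and Hes5 are repressors switched on by Notch signalling from neighbouring cells. Daughter cells that leave this state raise proneural factors such as Neurog2, pass through an Eomes-positive intermediate progenitor stage or become neurons directly.

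Members held a median of 3096 UMIs and 1821 genes per cell (634 to 12431 UMIs), and the other cells a median of 1656 UMIs. The other cells were of 2 kinds. In 454 of them, called marked cells here, there was an Eomes UMI or 2 or more UMIs of the 6 neuronal genes (median 2257 UMIs). The remaining 417, called unmarked cells, had neither (median 1149 UMIs), and 415 of them held 500 or more UMIs but fewer than 3 of the markers. A cell of low depth can miss 3 marker UMIs by sampling, so membership moved with depth. Just inside the limit, 76 members had 3 marker UMIs (median depth 2098.5). Just outside, 104 cells met every other condition with 2 marker UMIs (median depth 1248). With each cell thinned to 1000 UMIs, which left out 20 members and 199 other cells, the rule took 218 of 1199 cells (18.2%). No cell barcode was shared between the libraries, and doublets were kept.

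The 7 markers themselves give the levels that chose the cells, and are a description only. In UMIs summed over cells and scaled to a common total (counts per 1e6, CPM), Sox2 was at 654 in members against 192 in the other cells, Hes5 at 393 against 114, and Hes1 at 269 against 69.5. Ttyh1, which encodes a membrane channel-like protein of neural precursors, was at 398 against 119 CPM, and Pax6 at 349 against 165. Slc1a3, the glial glutamate transporter, was at 54.6 CPM against 15.9, and Mfge8, a secreted protein of radial glia, at 28.0 against 13.8. Single cells rarely held all of these. A UMI of Sox2 was present in 85.2% of members, of Ttyh1 in 65.6%, of Pax6 in 59.96%, of Hes5 in 56.9%, of Hes1 in 51.6%, of Slc1a3 in 15.4% and of Mfge8 in 8.96%. After thinning to 1000 UMIs the share with Sox2 was 48.8% of members and 10.8% of marked cells, and the share with Mfge8 was 2.47% and 2.40%. At that depth the share with Mfge8 was thus close in these 2 groups, on few cells. Over all UMIs its CPM, given above, was higher in members than in the other cells. Of all members, 15 showed 1 of the 7 markers, 98 showed 2, 186 showed 3, 148 showed 4, 84 showed 5, 14 showed 6 and 2 showed all 7.

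**Figure D1:**
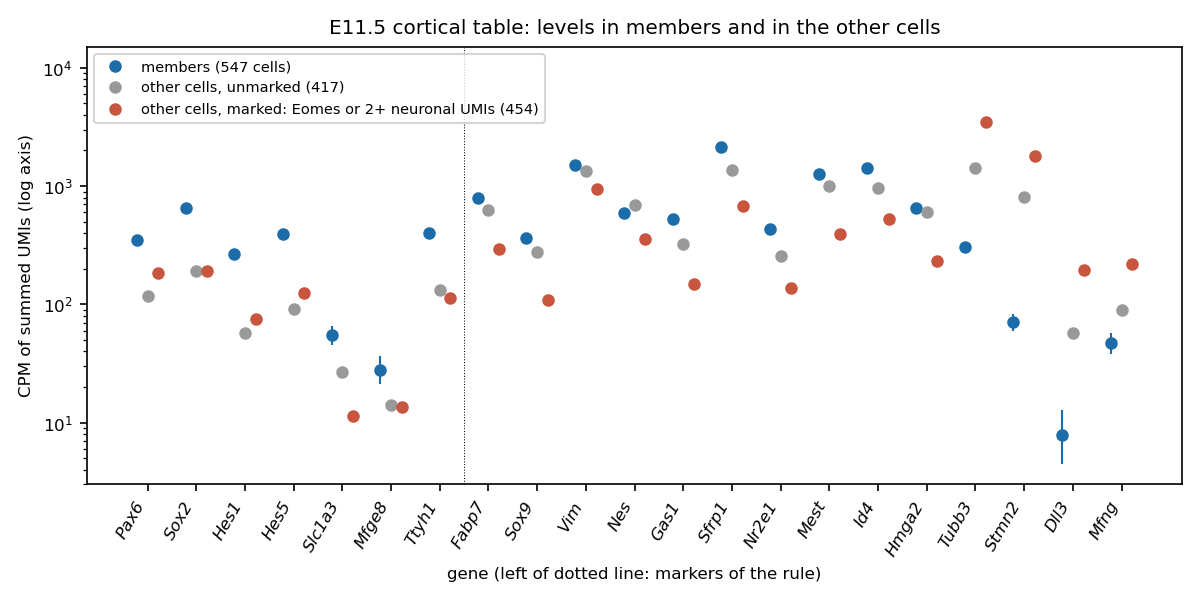
CPM of summed UMIs (log axis) for the 7 markers of the rule, left of the dotted line, and for 14 other genes, in the 547 members (blue, with 95% Poisson intervals, counting error only), the 417 unmarked cells (grey) and the 454 marked cells (red). Radial precursor genes outside the rule were nearer to the members' level in the unmarked than in the marked cells, with Nes above it there, and Tubb3, Stmn2, Dll3 and Mfng stood lowest in the members.

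Other genes known from radial precursors, which the rule did not read, were mostly higher in members. The rule set the other cells aside for neuronal or Eomes UMIs or for few marker UMIs, so this does not test the label. Of 6292 genes with at least 100 UMIs over both groups, 733 were at least 1.5-fold higher in members (11.6%) and 802 at least 1.5-fold lower (12.7%). The rule chose the cells on these same counts, so nothing is read from those shares. Of 20 listed radial precursor genes, 18 had enough UMIs, and 11 of these were at least 1.5-fold higher and 0 lower, with a median ratio of 1.69 against 1.04 over all genes. Against the unmarked cells alone their median ratio was 1.19, and against the marked cells 2.07. Fabp7, the brain lipid-binding protein of radial glia, was at 798 CPM in members, 633 in unmarked and 291 in marked cells. Sox9, a factor of neural stem cells, followed the same order at 364, 275 and 110 CPM. Vim and Nes, the intermediate filaments of these cells, differed less from all other cells together, with ratios of 1.42 and 1.31. Nes was at 596 CPM in members and 689 in unmarked cells, and by these genes the unmarked cells stood nearer to the members than the marked cells did.

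The genes most above the other cells, ranked by the bound of the ratio nearer to 1, began with Gas1, Sfrp1 and Nr2e1. Gas1, a membrane co-receptor for hedgehog ligands, was at 525 CPM in members and 200 in the other cells, a ratio of 2.63 (2.34 to 2.97). Sfrp1, a secreted Wnt antagonist, was at 2130 against 891 CPM (2.39, 2.26 to 2.53), and after thinning 80.6% of members and 30.2% of marked cells had a UMI. Nr2e1, the orphan nuclear receptor Tlx of neural stem cells, was at 430 against 173 CPM. These 3 genes were also above the unmarked cells, by 1.63, 1.55 and 1.69 times. Next came Zfp36l1, an RNA-binding protein that promotes mRNA decay (ratio 2.57), Ptn, the growth factor pleiotrophin (2.40), the imprinted gene Mest (2.18), Id4, an inhibitor of basic helix-loop-helix factors (2.17), Sox9 (2.28), Hs6st2, a heparan sulphate sulfotransferase (2.53), Pcna (2.23) and Gja1, the gap junction protein connexin 43 (2.52). Pcna-ps2, a copy of Pcna, was in the same range at 2.16, and reads of the 2 genes may have been split between them.

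Genes far below the other cells were mostly neuronal. The 12 lowest also held Calb2, listed here with Cajal-Retzius genes, and Lhx9, listed with diencephalic genes. The diencephalic list summed to 42.8 CPM in members against 261 in the other cells. Of its 10 genes in the table only 2 had enough UMIs, at ratios of 0.03 and 0.09, and 7 had no UMI in members. Its gene Lhx5 is also in the Cajal-Retzius list. Slc17a6, a vesicular glutamate transporter, was at 2.46 CPM in members and 152 in the other cells. The early neuronal helix-loop-helix factors Nhlh1 and Nhlh2 were at 2.46 against 127 CPM and 9.84 against 240 CPM. Ina, Nsg2, Nrn1, Nxph4, Clvs1 and St18 were below 0.05 of the other cells' level. All 16 neuronal genes with enough UMIs were at least 1.5-fold lower, with a median ratio of 0.11, and the 18 listed summed to 1661 CPM in members against 11453. The rule limits neuronal UMIs in a member. The unmarked cells met the same limit, and in them the list summed to 6472 CPM. Against these cells the list's median ratio was 0.21, with 0 of 16 genes above 1. The limit is a count of UMIs, and the unmarked cells were less deep (median 1149 against 3096 UMIs). Nearly all of them were also set apart by few marker UMIs, and the part of the rule in this difference was not tested. Neuronal transcripts were not absent: Tubb3, the neuronal tubulin, was at 306 CPM in members against 3465 CPM in marked cells, and after thinning 23.2% of members had a Tubb3 UMI against 88.2% of marked cells.

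**Figure D2:**
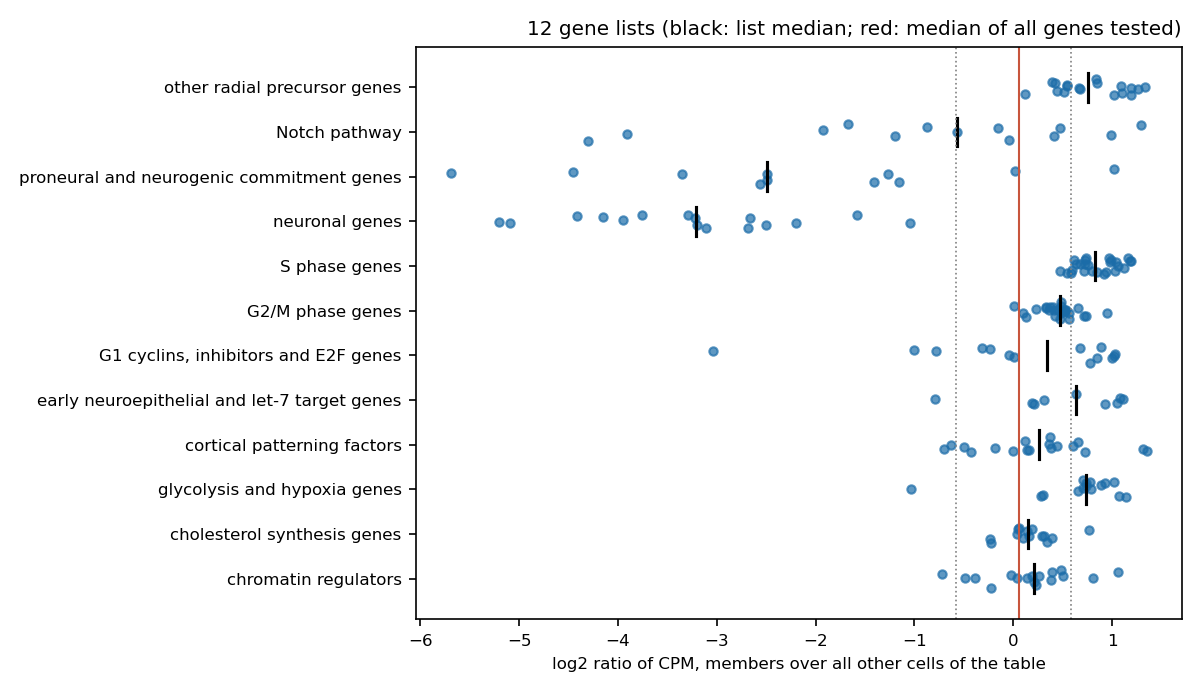
Log2 ratio of CPM in members over all other cells of the E11.5 cortical table, 1 point per gene with enough UMIs, for 12 gene lists. Black bars are list medians, the red line is the median of all 6292 genes and dotted lines mark 1.5-fold; S phase, glycolysis and radial precursor genes lie to the right, neuronal and proneural genes to the left.

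Genes of the Notch pathway differed in both directions. Of 13 listed members with enough UMIs outside the rule, 2 were at least 1.5-fold higher, 6 lower and 5 within 1.5-fold. Over all genes 11.6% were higher and 12.7% lower, so the count of higher genes was near that share. Nrarp, a Notch target that feeds back on the pathway, was 1.99 times higher in members (1.58 to 2.52). Lfng, a glycosyltransferase that tunes the receptors, was at 46.7 against 19.1 CPM (2.45, 1.65 to 3.70). The receptor Notch1 was at 62.5 against 45.1 CPM (1.38, 1.04 to 1.84). The ligand Dll1 was lower, at 39.4 against 90.2 CPM, and Dll3, an inhibitory ligand of cells leaving the cycle, was at 7.87 CPM, a ratio of 0.05 (0.03 to 0.08). Mfng, a second glycosyltransferase, was at 47.2 against 179 CPM, and Hes6, which opposes Hes1, at 128 against 410. Dner, a Notch-like surface protein of neurons, was at 8.86 against 133 CPM. Rbpj, the DNA-binding partner of cleaved Notch, was at 21.2 against 38.8. Jag2, Dll4 and Heyl had no UMI in members.

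The promoter of Hes5, the Notch target among the rule's markers, is shown because 2 matches to the RBPJ core letters GTGGGAA stand in it. The window is chr4:154960673-154960922 (GRCm38.p6, plus strand), the 250 bases before the RefSeq start of the gene. The capitals mark GTGGGAA and CCAAT, a core letter set bound by NF-Y, on either strand, so that TTCCCAC and ATTGG are the same letters read from the other strand, and no 2 matches overlap.
Hes5: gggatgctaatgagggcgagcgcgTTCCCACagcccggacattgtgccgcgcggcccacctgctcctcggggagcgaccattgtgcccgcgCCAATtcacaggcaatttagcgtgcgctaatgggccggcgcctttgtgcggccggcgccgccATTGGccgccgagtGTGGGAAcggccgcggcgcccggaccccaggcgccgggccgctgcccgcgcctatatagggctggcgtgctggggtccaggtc
The RBPJ letters begin 226 bases before the start on the minus strand and 83 bases before it on the plus strand. GTGGGAA was found in 5.42% of 32851 promoter windows of this length and CCAAT in 33.8%. Counted by gene, with any window of the gene, the shares were 6.18% and 37.5% of 27025 genes. A match describes the letters and not a bound site. Of the 7 markers, 6 had a window in the table, and Hes5 and Mfge8 held GTGGGAA.

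Most proneural and commitment genes were low in members. Of 11 listed genes with enough UMIs, 9 were at least 1.5-fold lower, against 12.7% of all genes. Neurog1 was at 19.2 CPM against 114, Neurog2 at 108 against 260, and Gadd45g, a growth-arrest protein of newly committed cells, at 51.2 against 287. Btg2, an antiproliferative gene of neurogenic divisions, was at 58.1 against 130 CPM and Insm1 at 8.86 against 49.9. The list's median ratio was 0.18 against all other cells and 0.78 against the unmarked cells, where that of Neurog2 was 0.93.

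Cell-cycle transcripts were present in nearly every member. Of 26 S phase genes, which code for the replication machinery, 24 were at least 1.5-fold above the other cells, and their median ratio was 1.77. Their median was 2.11 against marked and 1.27 against unmarked cells, and all 26 were above 1 in both. Mcm6 and Mcm3, subunits of the replicative helicase, were at 307 against 149 CPM and 304 against 149 CPM. Pcna, the sliding clamp, was at 369 against 166. Of 26 G2/M genes, which act in chromosome condensation and mitosis, 4 were at least 1.5-fold higher (Birc5, Aurkb, Ckap2 and Ttk) and the median ratio was 1.39. Over all genes 11.6% were at least 1.5-fold higher, near the G2/M count, and the median ratio was 1.04. Top2a, the topoisomerase that untangles chromosomes, was at 805 against 579 CPM, and Cdk1, the mitotic kinase, at 269 against 201.

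After thinning to 1000 UMIs per cell, 96.6% of 527 members held UMIs of both the S phase and the G2/M list, against 60.2% of 417 marked and 86.7% of 255 unmarked cells. A share of 67.7% of members had 5 or more G2/M UMIs (33.8% of marked cells, 59.2% of unmarked) and 68.7% had 5 or more S phase UMIs (21.3% and 50.2%). Members with no UMI of either list numbered 1 of 527, against 42 of 417 marked and 10 of 255 unmarked cells, at a depth equal in all groups.

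**Figure D3:**
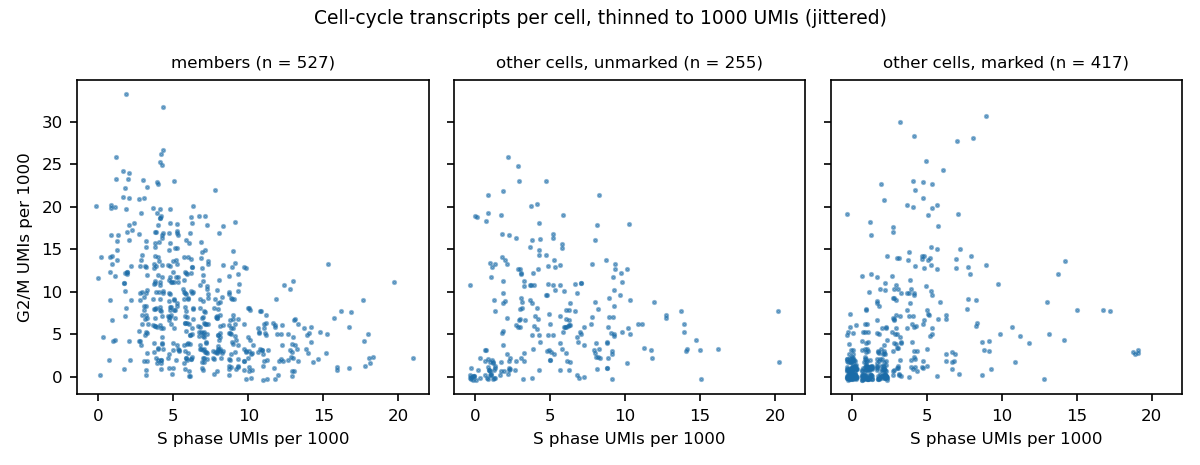
Summed UMIs of 26 S phase genes (x axis) and 26 G2/M genes (y axis) per cell after thinning to 1000 UMIs, with jitter, for 527 members, 255 unmarked and 417 marked cells. The marked cells have a dense group near 0 on both axes that the members lack.

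The promoters of 3 cell-cycle genes are shown because the 2 lists differ in the letters they carry. Each is the 250 bases before the RefSeq start on GRCm38.p6. Capitals mark, on either strand, the E2F letters TTTGGCGC and CCAAT in Mcm6 (chr1:128359706-128359955, minus strand), the E2F letters TTTCCCGC in Hells (chr19:38930740-38930989, plus strand), a chromatin remodeller of replicating cells, and the CHR letters TTTGAA with CCAAT in Cdk1 (chr10:69352913-69353162, minus strand). E2F factors act on genes of DNA replication, and the CHR element is known from genes of mitosis. None of the matches overlap.
Mcm6: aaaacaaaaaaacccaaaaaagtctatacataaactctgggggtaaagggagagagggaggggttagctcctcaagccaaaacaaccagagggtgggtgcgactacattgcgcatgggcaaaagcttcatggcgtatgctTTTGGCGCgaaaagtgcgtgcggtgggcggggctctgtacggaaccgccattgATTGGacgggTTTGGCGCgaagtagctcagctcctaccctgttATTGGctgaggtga
Hells: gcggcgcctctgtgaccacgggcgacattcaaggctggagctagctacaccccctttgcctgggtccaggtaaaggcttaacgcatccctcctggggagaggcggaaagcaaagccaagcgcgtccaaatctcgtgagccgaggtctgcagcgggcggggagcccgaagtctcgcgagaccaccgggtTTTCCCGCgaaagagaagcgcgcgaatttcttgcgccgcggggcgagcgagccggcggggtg
Cdk1: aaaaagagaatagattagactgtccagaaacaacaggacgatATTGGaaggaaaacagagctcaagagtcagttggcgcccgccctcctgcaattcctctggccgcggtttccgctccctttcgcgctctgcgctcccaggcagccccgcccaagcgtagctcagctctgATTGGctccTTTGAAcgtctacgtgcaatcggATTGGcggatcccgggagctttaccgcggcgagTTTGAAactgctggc
In Mcm6 the E2F letters stand 110 and 47 bases before the start, and in Cdk1 the CHR letters stand 71 and 15 bases before it. Windows were found for 20 of the 26 S phase and 23 of the 26 G2/M genes. One or the other E2F letter set was in 6 of the 20 S phase genes (Cdc6, Hells, Mcm5, Mcm6, Mcm7 and Pola1), in 0 of the 23 G2/M genes and in 1.51% of all 27025 genes with a window. The CHR letters were in 10 of the 23 G2/M genes, in 3 of the 20 S phase genes and in 18.3% of all genes. CCAAT was in 19 of the 23 and 13 of the 20, and in 37.5% of all genes. These counts describe the lists and not the cells, and a list without a match can still be bound through other letters.

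Genes that set entry into the cycle were divided. Of 14 with enough UMIs, 7 were at least 1.5-fold higher: Ccnd1, Ccnd3, Ccne1, Ccne2, Cdk2, E2f3 and Rbl1. Over all genes 11.6% were higher and 12.7% lower. The list's median ratio was 1.30, and 1.05 against unmarked cells, where that of all genes was 1.03. Ccnd1, the G1 cyclin of early precursors, was at 887 CPM in members and 555 in the other cells, but its ratio was 1.02 to unmarked cells and 2.10 to marked ones. Ccnd2 was level at 540 against 536 CPM. The cell-cycle inhibitor Cdkn1c (p57) was the lowest at 75.8 against 620 CPM (0.12, 0.10 to 0.14), with Cdkn2d at 47.2 against 94.5 and Rb1, the retinoblastoma protein, at 24.1 against 41.4.

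Early neuroepithelial genes, many of them targets of the let-7 microRNAs, gave 5 of 9 at least 1.5-fold higher and 1 lower. Over all genes these shares were 11.6% and 12.7%. The list's median ratio was 1.55, and 1.17 against unmarked cells. Hmga2, a chromatin protein of young stem cells (chr10:120361275-120476469, GRCm38, minus strand), was at 656 CPM in members, 602 in unmarked and 235 in marked cells. Mycn, Lix1, Lrrn1 and Hmga1 were also higher (ratios 2.16, 2.12, 2.07 and 1.55). Crabp2, which carries retinoic acid, was the one lower, at 416 against 720 CPM. Lin28b, which blocks let-7 maturation, had 51 UMIs in members (25.1 CPM) and too few in all for the comparison.

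Cortical patterning factors were for the most part near level, with 5 of 18 higher and 2 lower, against 11.6% and 12.7% of all genes. Otx2, a factor of the medial and caudal forebrain, was at 84.1 against 32.9 CPM (2.56, 1.90 to 3.48). Nr2e1, given above, was the other gene past 2-fold, and Otx1 (1.65) and Gli3 (1.52) were among those past 1.5-fold. Emx1 and Emx2, homeobox genes of the dorsal cortex, had ratios of 0.74 and 1.36, and Lhx2 had 0.71. Nr2f1, high in caudal cortex, was at 77.7 against 120 CPM and Zeb2 at 39.8 against 64.8. Genes of the cortical hem were sparse: of 14 listed, 10 were in the table. In members 6 of these had no UMI (Wnt3a, Wnt2b, Rspo2, Bmp4, Bmp6 and Ttr). The list still summed to 105 CPM in members against 45.1 in the other cells (2.33, 1.81 to 3.04). In unmarked cells it summed to 74.6. Only 1 of its genes had enough UMIs, at a ratio of 2.46. Sfrp2, a gene of the antihem, was at 53.1 against 22.8 CPM.

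Among signalling pathways, 4 of 9 Wnt genes were at least 1.5-fold higher and 1 lower, against 11.6% and 12.7% of all genes. Tcf7l1, a repressor among the Tcf factors, was at 79.2 against 26.0 CPM (3.05, 2.20 to 4.28), and Lef1 and the receptor Fzd8 had ratios of 1.54 and 1.83. The ligand Wnt7b was lower at 35.4 against 110 CPM. In the FGF list Fgf15 was at 54.1 against 22.8 CPM, Fgfr1 at 99.4 against 63.2 and Spred1, a feedback inhibitor, at 56.1 against 31.8, while Etv1 was at 23.1 against 123. Fgf15 was level with the unmarked cells (1.05). Of 7 BMP and Id genes 3 were higher (Id4, Bmpr1a and Bmpr1b), and of 6 hedgehog and cilium genes 2 were (Gas1 and Boc). Shh had no UMI in members. Among 8 ligand genes, Vegfa was at 33.5 against 20.7 CPM and Sema6a at 20.2 against 38.2. Apical junction and polarity genes gave 2 of 11 higher (Tjp1 at 1.69, Mpp5 at 1.51) and 1 lower (Pard3 at 0.59), against 11.6% and 12.7% of all genes.

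Glycolysis was the metabolic list that stood above all genes, with 12 of 15 at least 1.5-fold higher, 1 lower and a median ratio of 1.67. Ldha, which makes lactate from pyruvate, was at 1260 CPM against 621 (2.03, 1.89 to 2.18), and Slc16a1, a lactate carrier, at 46.7 against 21.2. Against unmarked cells the list's median was 1.12. The 14 cholesterol synthesis genes had a median ratio of 1.105 (1.06 against unmarked cells). Chromatin regulators gave 2 of 17 higher (Hat1 and Suv39h2) and 1 lower (Chd7 at 0.61), against 11.6% and 12.7% of all genes. Ezh2, the Polycomb methyltransferase, was level at 1298 against 1262 CPM. Genes of astroglia gave 3 of 5 higher (Hopx, Ntrk2 and Fgfbp3), but Gfap, S100b, Gjb6, Slco1c1, Scrg1 and Bcan had no UMI in members.

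Endothelial and microglial markers were at or near 0. Endothelial genes summed to 0.49 CPM in members with 7 of 8 at 0, microglial genes to 0.98 with 5 of 7 at 0, meningeal and mural genes to 15.7 with 2 of 9 at 0, and oligodendrocyte precursor genes to 18.7 with 2 of 4 at 0. In the other cells the endothelial and microglial lists summed to 3.18 and 2.12 CPM, the meningeal and mural list to 10.09 and the oligodendrocyte precursor list to 6.90. The last of these was higher in members (2.71, 1.41 to 5.54), and the meningeal and mural ratio had an interval that spans 1 (1.56, 0.86 to 2.91). Of the oligodendrocyte precursor list, Sox10 and Cspg4 were the genes without a UMI in members. That list shares Olig1 and Olig2 with the ganglionic eminence list. Cajal-Retzius genes summed to 31.5 CPM in members against 691 in the other cells. Hemoglobin genes were an exception: the erythroid list summed to 1325 CPM in members and 1066 in the other cells. Of the members, 163 had no hemoglobin UMI and 5 had 1% or more of their UMIs in hemoglobin genes, which together held 66.7% of all the members' hemoglobin UMIs. Without the cells of 1% or more, 737 genes were at least 1.5-fold higher and 799 lower. Dlx2, a factor of ventral progenitors, was at 57.6 CPM in members against 23.9 in the other cells. A UMI of Dlx1, Dlx2, Dlx5 or Gsx2 was found in 128 members (23.4%), and 3 or more in 32 (5.85%). After thinning, 17.46% of members, 9.80% of unmarked and 8.39% of marked cells had a UMI of the ganglionic eminence list. Leaving out every cell with a UMI of Dlx1, Dlx2, Dlx5 or Gsx2 gave 690 genes higher and 712 lower of 5509. Ribosomal protein genes took a median of 5.69% of a member's UMIs (5.63% in unmarked, 4.16% in marked cells) and mitochondrial genes 1.14% (1.71% and 1.39%). The part of these differences in the ratios was not tested.

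The genes that varied most among the members were hemoglobin genes, followed by Fabp7, Malat1 and Neurog2. Over 527 members thinned to 1000 UMIs, 2304 genes with a mean of at least 0.1 UMI had a median ratio of variance to mean of 1.05, close to counting noise. The 4 highest were the hemoglobin genes Hbb-y (61.3), Hba-a1 (32.2), Hba-x (27.5) and Hbb-bh1 (12.1). Among the next were Fabp7 (2.28), the nuclear RNA Malat1 (2.16), Neurog2 (2.07), Arl6ip1 (2.01) and Ube2c (1.98), a ubiquitin enzyme of mitosis. Each of the 4 hemoglobin genes had at least 26% of its UMIs in 1 member. Fabp7 reached 12 UMIs in 1 thinned cell while 44.8% of members and 17.0% of marked cells had any.

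Members with a Neurog2 UMI carried other commitment genes. They were 93 of 547 (17.0%, median 3688 UMIs, against 2982.5 in members without), and 7.59% after thinning, against 18.2% of marked cells. Of 4208 genes, 78 were at least 1.5-fold higher in them (1.85%) and 144 lower (3.42%). Gadd45g was at 159 CPM in these members and 23.0 in members without Neurog2 (6.91, 4.56 to 10.6). Emx1 was at 208 against 98.7 CPM, Btg2 at 99.5 against 47.2 and Hes6 at 197 against 111. Hes5 was at 287 against 420 CPM (0.68, 0.56 to 0.83) and Hes1 at 211 against 284, neither past 1.5-fold. Sox2 was at 547 against 682 CPM and Pax6 at 407 against 333, though these 4 genes belong to the rule. Fgf15 was at 14.2 against 64.6 CPM and Mest at 810 against 1377. Top2a and Pcna were near level (0.88 and 0.89). Dqx1 had the highest ratio, but 76 of its 108 UMIs were in 1 member.

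Members with a Dll1 UMI, 54 cells, also carried commitment genes: of 4209 genes 122 were at least 1.5-fold higher (2.9%) and 218 lower (5.18%). Gadd45g was at 213 against 26.6 CPM, Hes6 at 291 against 104, Btg2 at 138 against 45.9 and Neurog2 at 231 against 89.0. Hes5 was near level (0.95, 0.77 to 1.18). Cdk1 was at 160 against 285 CPM, but it was the only G2/M gene past 1.5-fold. Of the 26 G2/M genes 0 were higher and 1 lower, with a median ratio of 0.87. Of 26 S phase genes 0 were higher and 0 lower.

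The members were also split on Top2a and on Pcna. Top2a UMIs were found in 385 members (median 3652 UMIs against 2492.5), and 225 of 4208 genes were at least 1.5-fold higher in them (5.35%) and 76 lower (1.81%). Prc1, which bundles spindle microtubules, was at 522 against 125 CPM, Nusap1 at 401 against 108 and Aurka, a spindle kinase, at 124 against 25.9. Of the other 25 G2/M genes 16 were at least 1.5-fold higher and 0 lower, and of 26 S phase genes 1 was higher and 1 lower. Mki67 was not past 1.5-fold (1.12). Neurog2 was at 85.2 against 193 CPM and Ung, a DNA repair enzyme, at 90.8 against 177. Pcna UMIs were found in 335 members (median 3608 UMIs against 2508). Its copy Pcna-ps2 was at 695 CPM in these and 292 in members without a Pcna UMI. In members with Pcna, Gins2, Mcm4 and Mcm6 were 2.05, 1.85 and 1.74 times higher. The mitotic genes Ube2c and Cenpf were at 0.55 and 0.53 of the level without, and Arl6ip1, an endoplasmic reticulum membrane protein, was at 0.53. Of the other 25 S phase genes 9 were at least 1.5-fold higher and 16 within 1.5-fold, and of 26 G2/M genes 12 were lower and 14 within. Of 4208 genes 71 were at least 1.5-fold higher (1.69%) and 80 lower (1.9%).

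Regional genes were also used to split the members. Wnt8b, a Wnt ligand of the medial edge, had UMIs in 25 members (4.57%, 1.52% after thinning against 0.24% of marked cells). Of 4209 genes, 312 were at least 1.5-fold higher in these (7.41%) and 584 lower (13.9%), on sums of few cells. In these Lrrn1 was at 545 against 180 CPM (3.03, 2.29 to 3.97), Igfbpl1 at 443 against 76.2 and Igfbp2 at 1081 against 518. Otx2 and Ednrb had no UMI in the 25 cells, against 171 and 202 UMIs in the other members, with upper bounds of the ratio of 0.36 and 0.30. Ptn was at 93.6 against 312 CPM and Nr2e1 at 247 against 441. In the 107 members with Nr2f1, 65 of 4208 genes were at least 1.5-fold higher (1.54%) and 119 lower (2.83%). They had Fabp7 at 545 against 873 CPM, Mest at 849 against 1380 and Otx2 at 43.2 against 96.2. Sfrp2 marked 88 members, in which Neurog2 was at 51.0 against 121 CPM. Of 4208 genes 56 were at least 1.5-fold higher in these (1.33%) and 146 lower (3.47%).

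In the same E11.5 library, 69 of 582 cells outside the cortical table passed the rule (11.9%), and the members differed from them in dorsal and ventral genes. These cells had a median of 2106 UMIs, and the 5 deepest held 29.1% of their UMIs. Of 4609 genes, 387 were at least 1.5-fold higher in members (8.4%) and 260 lower (5.64%). With trimmed-mean (TMM) scaling these were 537 and 190. Since the authors chose the cortical cells by criteria that the labels do not give, genes used for that choice may be among them. Emx1 was at 122 CPM in members and 28.2 outside (4.31, 2.15 to 10.1), where 4 cells held its 8 UMIs, and Emx2 was at 345 against 166 (2.08). Lrrn1 was at 201 against 84.7 CPM, Gas1 at 525 against 254 and Sfrp1 at 2130 against 1341. The ventral factors Dlx2 and Dlx1 were at 57.6 against 402 CPM and 45.8 against 296, and 62.3% of the outside cells had a UMI of Dlx1, Dlx2, Dlx5 or Gsx2. Ganglionic eminence genes summed to 195 CPM in members and 1464 outside.

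Neuronal genes were also higher outside. Both groups passed the same limit on the count of neuronal UMIs, but the outside cells were less deep (median 2106 against 3096 UMIs). Tubb3 was at 306 CPM in members and 1295 outside (0.24), Stmn2, which regulates microtubules in growing axons, at 70.4 against 603 and Cdkn1c at 75.8 against 339. All 10 neuronal genes with enough UMIs were at least 1.5-fold lower in members. The imprinted RNA H19 was at 27.1 against 183 CPM, but 84.6% of its outside UMIs were in 1 cell, and with 5 marker UMIs, or on thinned cells, its ratio was 1.80 or 3.70. S phase genes gave 4 of 26 higher in members and G2/M genes 2 of 26, against 8.4% of all genes. Endothelial genes summed to 148 CPM outside against 0.49 in members, and meningeal and mural genes to 102 against 15.7.

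**Figure D4:**
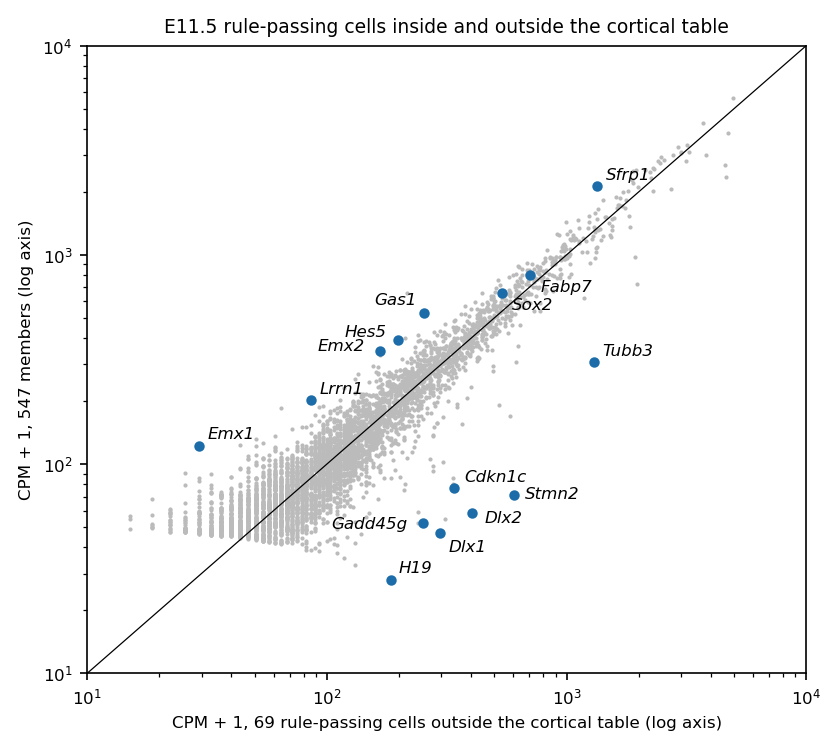
CPM + 1 (log axes) of each gene with enough UMIs in the 547 members (y axis) and in the 69 rule-passing E11.5 cells outside the cortical table (x axis), with 15 genes labelled and the line of equality drawn. Emx1, Emx2 and Gas1 lie above the line, Dlx1, Dlx2, Stmn2 and Tubb3 below it, and Fabp7 and Sox2 near it.

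Fewer of the cells in each later cortical table passed the rule: 137 of 1137 at E13.5 (12.05%), 157 of 2955 at E15.5 (5.31%) and 62 of 880 at E17.5 (7.05%). After thinning to 1000 UMIs the shares were 18.2%, 10.02%, 4.69% and 7.36%, so the gap between E11.5 and E13.5 was smaller at equal depth. Age cannot be told apart from library, and the E11.5 library alone was not sorted. The rule's markers do not mark the same level of each gene at each age: Slc1a3 was at 54.6, 230, 543 and 1312 CPM in the rule-passing cells of the 4 ages, while Sox2 was at 654, 860, 673 and 638.

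Of 5481 genes, 49 were at least 2-fold higher in members than in the rule-passing cells of every later age (0.894%) and 121 at least 2-fold lower (2.21%). With TMM scaling, which shifted the ratios by 0.09, 0.14 and 0.21 on the log2 scale against E13.5, E15.5 and E17.5, these were 78 and 109. Hmga2 was at 656 CPM at E11.5 and at 81.9, 33.5 and 0 CPM later, and Crabp2 at 416, then 20.5, 28.7 and 0. Against the limit of 3 counts over the E17.5 cells (21.5 CPM) they were at least 30.5-fold and 19.3-fold higher. Lrrn1, a leucine-rich repeat surface protein, was at 201 CPM and then at 15.4, 26.3 and 21.5. Ccnd1 was at 887, 330, 232 and 265 CPM. Mest was at 1259, 213, 606 and 538 CPM, lowest at E13.5. Also higher at E11.5 were Lix1, Cntnap2, Cdc34, Arhgap11a, Nt5dc2, the ribonucleotide reductase subunit Rrm2 and the mitotic kinase Plk1, each at least 2.03 times the nearest later age. Of 9 early neuroepithelial genes 4 were at least 2-fold higher (Hmga2, Crabp2, Lrrn1 and Lix1), and of 26 S phase and 26 G2/M genes 1 and 0 were.

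Genes that were low at E11.5 include glial and late precursor genes. Aldoc, a glycolytic enzyme of astroglia, was at 5.90 CPM in members and at 550, 955 and 1205 CPM later, and Ndrg2 at 5.41 and then 310, 421 and 645. Nfix and Nfia, nuclear factors that act in gliogenesis, were at 10.3 and 29.5 CPM, against at least 265 and 222 later. Zbtb20, a repressor of later precursors, was at 61.0 CPM and then at 481, 467 and 445. Ptn was at 300 CPM, then at 1608, 2293 and 4539, so it was above the other cells within E11.5 and yet below each later age. Mt3, Rlbp1, Egr1, Limch1, Fam210b and Ddah1 were also at most 0.16 of every later age. Fabp7 was at 798, 3116, 8327 and 20840 CPM. Of 8 dissociation and stress genes with enough UMIs, 4 were at least 2-fold lower at E11.5, the age that was not sorted. In the E17.5 cells microglial genes summed to 143 CPM, meningeal and mural genes to 423 and oligodendrocyte precursor genes to 610, against 0.98, 15.7 and 18.7 in members, and the part of these cells in the ratios was not tested.

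**Figure D5:**
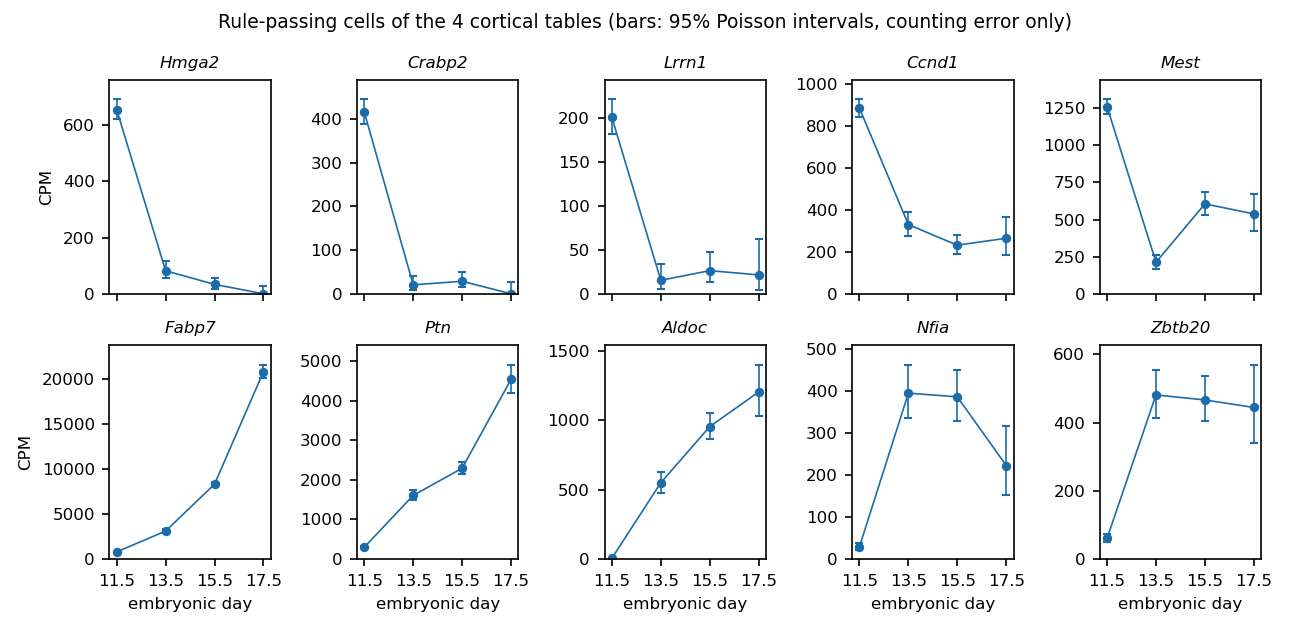
CPM of 10 genes in the rule-passing cells of the cortical tables at the 4 ages (x axis, embryonic day; 1 library per age; bars are 95% Poisson intervals, counting error only; lines join the ages). Hmga2, Crabp2, Lrrn1, Ccnd1 and Mest stand highest at E11.5, and Fabp7, Ptn, Aldoc, Nfia and Zbtb20 lowest.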

How the data were processed

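Cells of wild-type CD1 embryonic cortex were profiled by Drop-seq. The authors deposited, for each age, UMI count tables without normalization, of all cells and of those they took as cortical. The genome was mm10, per the submitters' processing notes. For the aligner, annotation and counter, a name was not given in the sources used here. Counts of each E11.5 cortical cell were identical in both tables. Tables other than the 4 cortical ones and the E11.5 all-cell table were not used here.

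Cells passing the rule were found with python 3.11.15 (numpy 2.4.6, scipy 1.17.1, pandas 2.3.3). UMIs were summed per group and scaled to CPM, and ratios carry exact conditional 95% intervals for counting error only; PCR and capture are not covered. Genes needed 100 UMIs over the groups compared. Thinning drew 1000 UMIs per cell without replacement. TMM factors came from edgeR 4.0.16 (R 4.3.3). The interval script was tested on simulated data. Members and gene lists were chosen with earlier results of these data known. By rule the text names, per comparison, the 12 highest and 12 lowest genes of at least 100 CPM by the interval bound nearer to 1, without rule, hemoglobin and predicted genes, and list members past the fold or among the 6 highest by CPM. Promoter windows are from RefSeq (GRCm38.p6) and gene positions from GENCODE vM21 (GRCm38). Alternatives changed the rule, depth, scaling, filter and the cells compared, and 2 that left out hemoglobin-rich or ventral-marker cells were added after seeing the data. Some genes that the naming rule selects are not reported.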

Additional observations from a re-analysis of the deposited data

Results flagged for a closer look

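Cells that passed the radial precursor rule were also present in the E11.5 library outside the authors' cortical table, 69 of 582 cells. They were flagged because they carry the signal of the rule in cells that the main comparison, between members and the other cells of the cortical table, does not use. Their values against the members are given in the text, and no control sample exists for them.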

How the results depend on the processing

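No paired analysis was possible because each age had 1 library and no result comes from a test. The share of E11.5 cortical cells passing the rule was 38.6%, and 45.9% with 2 marker UMIs, 26.8% with 5, 35.9% with no neuronal UMI allowed and 18.2% on thinned cells. Genes higher in members than in the other cells (733) were 466 with 5 marker UMIs, 294 on thinned cells, 333 against unmarked cells, 432 with a filter of 200 UMIs and 3384 with 1 UMI. Genes lower (802) were 231 against unmarked cells, 1263 with a filter of 50 UMIs, 440 with 200 and 4301 with 1. Against the outside cells, genes higher (387) were 764 without the deepest 5% of cells, 966 with equal weight per cell, and 735, 141 and 4597 with filters of 50, 200 and 1 UMI. Genes lower (260) were 141 on thinned cells, 545 with equal weight per cell, and 598, 90 and 3092 with those filters. Genes higher than at every later age (49) were 30 on thinned cells, 78 with TMM scaling, and 79, 31 and 1611 with those filters, and genes lower (121) were 239, 63 and 2052. The filters change how many genes enter, and so do thinning, leaving out the deepest cells and the choice of cells compared. On thinned cells 2083 genes entered against the outside cells (4609 in the main comparison) and 3643 against later ages (5481). Without the deepest cells 3770 entered against the outside cells, and against unmarked cells 4927 entered (6292). The counts are therefore not all of the same number of genes, and the cause of the other changes was not tested. H19 against the outside cells went from 0.15 to 1.80 with 5 marker UMIs and to 3.70 on thinned cells. No other named gene changed direction. Named genes moved past their counting interval in 78 of 336 values against the other cells, 56 of 264 against the outside cells and 1 of 264 against later ages. The 62 rule-passing cells at E17.5 and 69 outside the table limit what their low counts can show.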
